A study of Mus musculus with 3 samples.

Results

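Most microRNAs (miRNAs, short RNAs that guide repression of messenger RNAs) are cut out of long transcripts by the nuclear enzyme Drosha. A few bypass it, and 4 hairpins of that kind are described here: miR-320 and miR-484, whose hairpins are made directly by transcription, and miR-877 and miR-1224, which are introns released by splicing. All rows with one of these 4 names were taken from the deposited table, whatever the arm, which gave 5 rows of 1251. They are miR-320-3p, miR-320-5p, miR-484, miR-877-3p and miR-1224-3p. The strands miR-877-5p and miR-1224-5p were not analysed here.

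The values come from small RNA sequencing of visceral fat of the epididymal depot. The 3 C57BL/6J mice, numbered 1, 3 and 9 in the labels, were put on a high-fat diet at 5 to 6 weeks of age, kept on it for 11 weeks and fasted for 4 h at the end. The diet drew 45% of its energy from fat, 20% from protein and 35% from carbohydrate and contained eicosapentaenoic acid (EPA, a marine omega-3 fat) at 6.75%. With a single diet group and no control diet, an effect of EPA cannot be read from these values. Since the titles alone separate the 3 samples as animals, a p-value here reflects the spread among samples, part of which may be technical.

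In the usual route Drosha, with its partner DGCR8, frees a hairpin that Dicer then cuts into a 5p and a 3p strand. The miR-320 hairpin keeps the cap that RNA polymerase II transcripts receive at their start, leaves the nucleus through the exporter Xpo1 and goes straight to Dicer. The cap hinders loading of the miR-320 5p strand into Argonaute, so its 3p strand is the one known to act. In cultured adipocytes miR-320 is known for its link to insulin resistance, and miR-484 is known in heart muscle cells for repressing the mitochondrial fission gene Fis1. A mirtron such as miR-877 or miR-1224 is a short intron that, once spliced and debranched, folds into a hairpin that Dicer accepts, so its ends are the splice sites of its host gene.

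The mature strands below carry the results that follow. Their seed (bases 2 to 8, which select targets) is in capitals. They are RefSeq sequences on GRCm38, read 5′ to 3′. Of the 5 rows, 3 had an entry in the table of sequences; miR-320-3p and miR-320-5p are given by name.
miR-484: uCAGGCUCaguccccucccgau
miR-877-3p: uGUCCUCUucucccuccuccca
miR-1224-3p: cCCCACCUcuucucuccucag

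No seed was shared: each of these 3 strands had 0 other mature miRNAs with the same bases 2 to 8 among the 1679 in that table. C and U, in which the end of an intron is often rich, made up much of these strands. C and U made up 90.9% of miR-877-3p, above 99.9% of the mature miRNAs in the table, and 85.7% of miR-1224-3p, above 98.6% of them. For miR-484 the share was 68.2%, for the mirtron strand miR-1981-3p described below 66.7%, and the median over all mature miRNAs was 50%.

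The 2 mirtron hairpins filled their introns to the base. Mir877 spans chromosome 17 from 35960730 to 35960814 on the minus strand and Mir1224 spans chromosome 16 from 20604452 to 20604536 on the plus strand (GRCm38). In the GENCODE M21 annotation of that assembly both coincide with a whole intron of 85 bases, with 0 bases to spare at either end. The host of Mir877 is Abcf1, an ATP-binding cassette protein with a role in translation, and that of Mir1224 is Vwa5b2. The hairpins are shown with their first and last pair of bases, the splice-site letters GU and AG, in capitals. Mir1981, a mirtron of Marc2 on chromosome 1 (184822407 to 184822488, minus strand), is set beside them because its 3p strand was seen in this fat. It coincides with an intron of 82 bases.
Mir877: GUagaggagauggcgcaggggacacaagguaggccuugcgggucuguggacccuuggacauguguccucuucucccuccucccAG
Mir1224: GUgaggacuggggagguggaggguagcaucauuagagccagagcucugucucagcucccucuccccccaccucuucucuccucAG
Mir1981: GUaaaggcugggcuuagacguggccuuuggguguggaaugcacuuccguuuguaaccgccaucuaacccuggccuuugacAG

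The 3p strand miR-1224-3p ends on the last base of its hairpin, miR-877-3p stops 1 base short of it and miR-1981-3p 2 bases short. The 5p strands of the 3 hairpins begin on the first base, with 0 bases before them. Hairpins that start with GU and end with AG, read on their own strand, made up 2.99% (30 of 1005) of RefSeq hairpins. Those that fill a whole annotated intron, within 2 bases at each end, made up 1.59% (16), and 15 of these 16 also had the letters. The letters alone do not mark a mirtron, as the hairpins of miR-20a and miR-194-2 have them too and fill no intron.

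**Figure D1:**
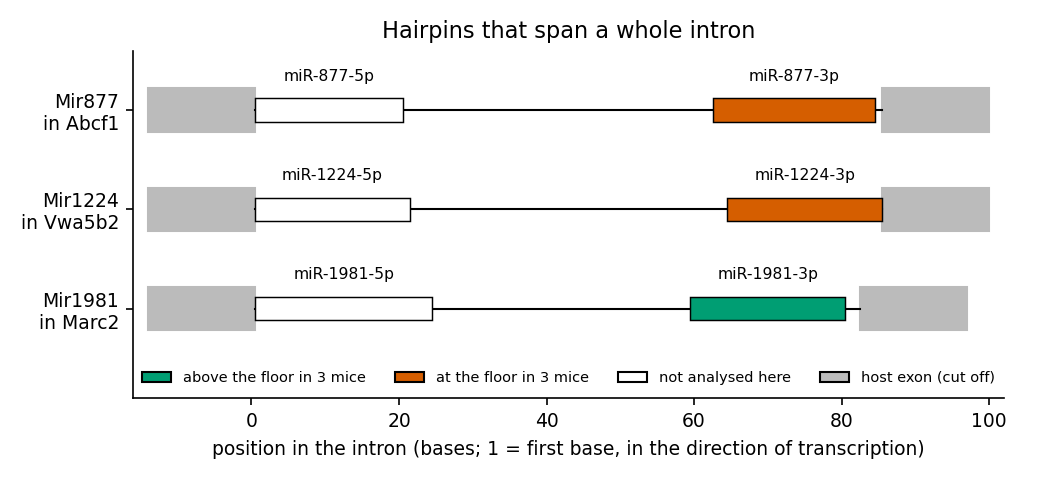
The introns of Abcf1, Vwa5b2 and Marc2 that Mir877, Mir1224 and Mir1981 fill, drawn to scale with position in bases from the first base of the intron. Boxes are the mature strands, coloured by whether their row stood above the floor in 3 mice, stood at it or was not analysed here, and each hairpin runs from one host exon to the next with 0 bases left over.

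The other 2 hairpins lie outside any gene on their own strand. Mir320 spans chromosome 14 from 70443510 to 70443591 on the plus strand and starts 63 bases from the start of Polr3d, an RNA polymerase III subunit gene that runs the other way. Mir484 spans chromosome 16 from 14159626 to 14159692 on the plus strand, 3583 bases upstream of the start of Nde1, a dynein regulator gene on the same strand. The Mir484 hairpin overlaps an annotated UTR of Marf1 on the opposite strand by 19 bases.

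Both capped-hairpin miRNAs were present at moderate and nearly equal levels in this fat, and the other 3 rows stood at the floor of the scale. Levels are log2 of the normalized count plus 10, so the floor is 3.32, and a row above it counts as seen. miR-484 had 10.79 log2 units in mouse 1, 10.56 in mouse 3 and 11.12 in mouse 9. Its mean was 10.82 ± 0.28 (SD, n = 3), with mouse 9 highest and mouse 3 lowest. miR-320-3p had 10.56 in mouse 1, 10.65 in mouse 3 and 10.74 in mouse 9, a mean of 10.65 ± 0.09 (SD, n = 3). Its 3 values lie close together. As normalized counts above the floor, miR-484 had 1755, 1498 and 2214 in mice 1, 3 and 9, and miR-320-3p had 1498, 1598 and 1697. The mean share of the summed normalized count was 0.0758% ± 0.0151 for miR-484 and 0.0664% ± 0.00412 for miR-320-3p (SD, n = 3).

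miR-320-5p, the strand next to the cap, and the mirtron strands miR-877-3p and miR-1224-3p had 3.32 in every mouse. At the depth of these libraries they could not be detected, and absence is not shown. So 2 of the 5 rows stood above the floor in all mice, where 22.9% of all 1251 rows did, and 3 stood at it throughout, where 71.0% of all rows did. In bulk tissue, fewer cells of a type and less RNA per cell cannot be told apart.

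By mean level miR-484 was rank 76 and miR-320-3p rank 80 of 1251. Among the 363 miRNAs seen in at least 1 mouse, 79.1% stood lower than miR-484 and 78.0% lower than miR-320-3p. miR-484 held ranks 76, 81 and 69 in mice 1, 3 and 9, and miR-320-3p held ranks 81, 79 and 77. The table gives equal values to equal ranks over most of its upper range, so the value of miR-320-3p in mouse 1 equals that of miR-484 in mouse 3, both at rank 81. A difference between mice is here in essence one of ranks.

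**Figure D2:**
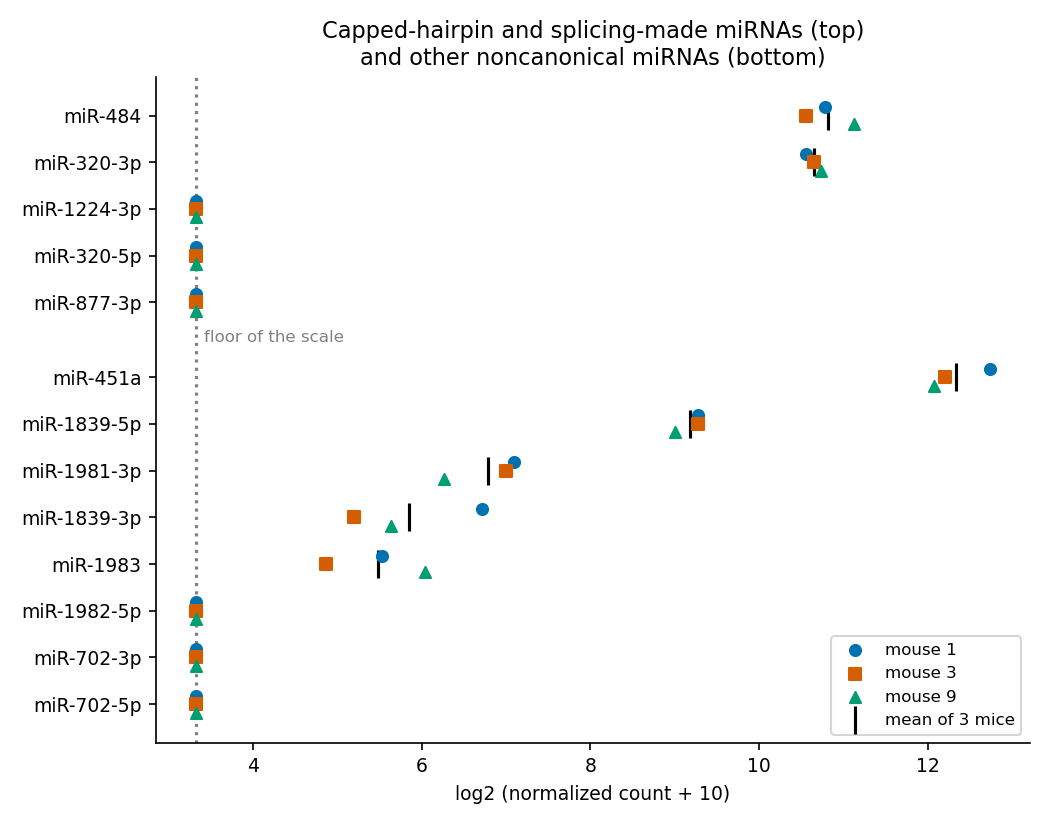
Log2 level (normalized count plus 10) of each row in mice 1, 3 and 9, with the mean as a vertical bar, for the 5 capped-hairpin and mirtron rows (top) and 8 other noncanonical rows (bottom). miR-484 and miR-320-3p lie between 10.56 and 11.12, and the dotted line marks the floor of 3.32 at which miR-320-5p, miR-877-3p and miR-1224-3p stand.

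The order of the 2 seen strands was not the same in every mouse, and their difference lay within the spread. miR-484 exceeded miR-320-3p by 0.23 log2 units in mouse 1 and 0.38 in mouse 9, and stood below it in mouse 3, at -0.09. The mean difference was 0.17 ± 0.24 (SD, n = 3), with miR-484 higher in 2 of 3 mice. The two-sided exact sign-flip permutation test gave p = 0.5, and 0.5 after Benjamini-Hochberg adjustment over the 2 neighbouring pairs. The smallest p that 3 mice allow is 0.25. The other pair sets miR-320-3p against the rows at the floor, and it stood above all 3 of them in 3 of 3 mice. No p is given for that pair, because the lower rows held only the log constant and the outcome was fixed in advance. This comparison is between different RNAs, which a library does not capture equally well.

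**Figure D3:**
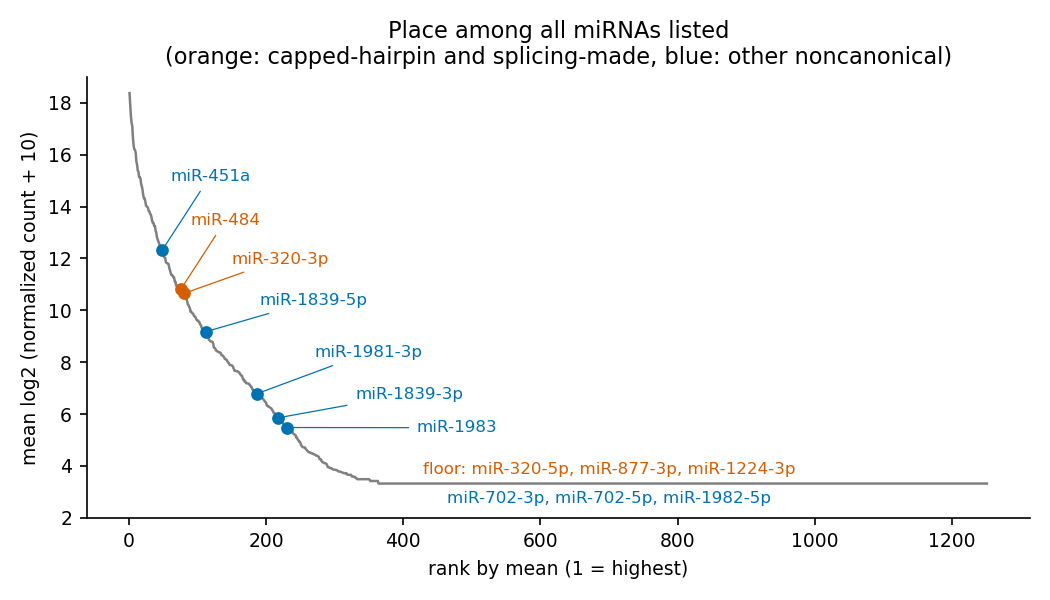
Mean log2 level of all 1251 miRNAs against rank. miR-484 (rank 76) and miR-320-3p (rank 80) sit side by side on the steep part of the curve, while miR-320-5p, miR-877-3p and miR-1224-3p lie on the flat floor.

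miR-320-3p was one of the steadier miRNAs between mice and miR-484 was near the middle. Over the 194 miRNAs whose mean normalized count reached 100, 13.4% had a smaller SD than miR-320-3p and 60.8% a smaller SD than miR-484, and the median SD was 0.22. Among the 39 of them within 1 log2 unit of the average of both levels, 10.3% had a smaller SD than miR-320-3p and 59.0% a smaller one than miR-484. The highest mouse exceeded the lowest 1.13-fold for miR-320-3p and 1.47-fold for miR-484 on the scale with 10 added. Neither differed by 1 log2 unit or more between any 2 mice, where 12.4% of the 194 miRNAs did. An SD from 3 values is itself imprecise: for miR-484, 82.9% of miRNAs had a smaller SD without mouse 1 and 47.1% without mouse 9, and for miR-320-3p 41.3% without mouse 3.

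**Figure D4:**
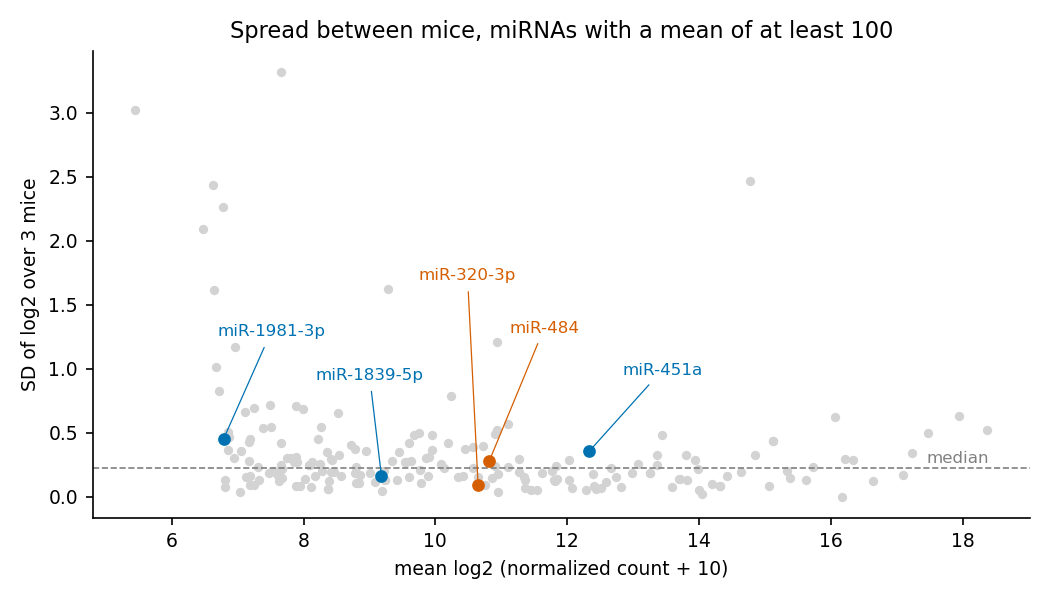
SD over 3 mice against mean log2 level for the 194 miRNAs whose mean normalized count reached 100. miR-320-3p (SD 0.09) lies below the dashed median of 0.22 and miR-484 (SD 0.28) just above it.

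The miRNAs nearest to each in level over the 3 mice were found by the root mean square difference of their log2 values. Nearest to miR-320-3p were miR-423-5p at 0.12 log2 units, miR-342-3p at 0.16, which is known from lymphoid cells, and miR-146b-5p at 0.20, known from inflammatory signalling. Nearest to miR-484 were miR-24-3p at 0.12, miR-139-5p at 0.14 and miR-222-3p at 0.19, the last known from endothelium. miR-484 and miR-320-3p stood at 0.26 from each other, each the 6th nearest to the other. With 3 mice this likeness reflects mostly the mean level.

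The tissue label was checked against marker miRNAs. All 9 adipocyte-linked miRNAs were seen in every mouse and summed to between 12.7% and 16.6% of the normalized count. The hepatocyte miR-122-5p and the neuronal miR-124-3p stood at the floor throughout, while the other neuronal marker, miR-9-5p, was seen in every mouse at a low level of 4.56 ± 0.88 log2 units (SD, n = 3). Other cell types were present too. The 7 epithelial miRNAs, 4 of them seen in every mouse, summed to 0.0692%, 0.157% and 0.0378% in mice 1, 3 and 9. The 4 leukocyte miRNAs summed to between 0.354% and 0.381%, and the 2 endothelial ones to between 0.618% and 0.884%. The 6 striated muscle miRNAs, 2 of them seen in every mouse, summed to 0.163%, 3.57% and 2.79% in mice 1, 3 and 9. That sum rests mainly on miR-133a-3p, with a mean of 14.78 log2 units, followed by miR-133b-3p at 7.65. Means of miR-1a-3p (4.10), miR-208b-3p (3.95) and miR-206-3p (3.49) lay near the floor, and miR-208a-3p stood at it. miR-320-3p was also lowest in mouse 1, by 0.09 log2 units against mouse 3, and the part of muscle tissue in this was not tested. miR-484 was not lowest in mouse 1.

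Other hairpins that are known to be made without the full canonical route were mostly seen, at lower levels than miR-484 and miR-320-3p with the exception of miR-451a. Of 8 such rows in the table, 5 were seen in each of the 3 mice and 3 in no mouse, where 22.9% and 71.0% of all rows were. The mirtron strand miR-1981-3p had 7.09, 7.0 and 6.27 log2 units in mice 1, 3 and 9, lowest in mouse 9. miR-1839-5p, cut from a small Cajal body RNA, had 9.27, 9.27 and 9.0. miR-1983, cut from a tRNA, had 5.53, 4.87 and 6.04, with mouse 9 highest. These 3 sources are a spliced intron, a nuclear guide RNA and a transfer RNA, and all lay below the lowest value of miR-320-3p.

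The rows at the floor were the mirtron-type strands miR-702-3p, miR-702-5p and miR-1982-5p. The 2 further rows for 3p forms of miR-1982, named after their values were seen, stood there too. Only rows of hairpins with a sequence entry, at most 984 of 1251, and numbered forms of their names could be assessed for hairpins that fill a whole intron. They gave 6 such rows. Of these, miR-1981-3p stood above the floor in all mice, as did 22.9% of all rows. The others, miR-877-3p, miR-1224-3p and the 3 rows of miR-1982, stood at it, as did 71.0% of all rows. miR-451a, whose hairpin needs Drosha but is cut by Argonaute in place of Dicer, had 12.74, 12.20 and 12.07 in mice 1, 3 and 9. It was highest in mouse 1, as was the summed share of the 4 erythroid miRNAs that include it (2.39%, 1.51% and 1.38%).

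The arms of a hairpin were compared where both had a row, which among the 4 hairpins held for miR-320. Its 5p strand stood at the floor in every mouse while its 3p strand stood at 10.56 to 10.74, so the 3p strand was higher in 3 of 3 mice. On the deposited scale the mean of log2 5p minus log2 3p was -7.33 (n = 3), a size set by the constant of 10 and not a fold. No p is given for miR-320, because it entered the test through the level of its 3p strand and its 5p strand held nothing but that constant, so a call was fixed in advance. Over all 129 hairpins tested with limma's moderated one-sample test, 96.9% had an adjusted p below 0.05, 51.2% with the 5p strand higher and 45.7% with the 3p strand higher. These shares include miR-320 and other hairpins with a strand at the floor in all mice, so they depend on the filter and the floor.

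An unseen 5p strand was not particular to miR-320. Of the 59 hairpins with the 3p strand higher, 23, miR-320 among them, had a 5p strand at the floor in all mice. In 5 of these the 3p strand stood higher than miR-320-3p, namely miR-29a, miR-23a, miR-23b, miR-130a and miR-222, named after their values were seen. miR-1839 was the other noncanonical hairpin tested, and both its strands were seen in every mouse. Its 5p strand averaged 9.18 ± 0.16 and its 3p strand 5.85 ± 0.78 log2 units (SD, n = 3). The mean of log2 5p minus log2 3p was 3.33 (SE 0.33), positive in 3 of 3 mice. No p is given here either, because miR-1839 entered the test through the level of its higher 5p strand. Its 3p strand had 6.72, 5.20 and 5.64 in mice 1, 3 and 9, highest in mouse 1. Strands with different sequences are captured unequally, which these differences do not correct.

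**Figure D5:**
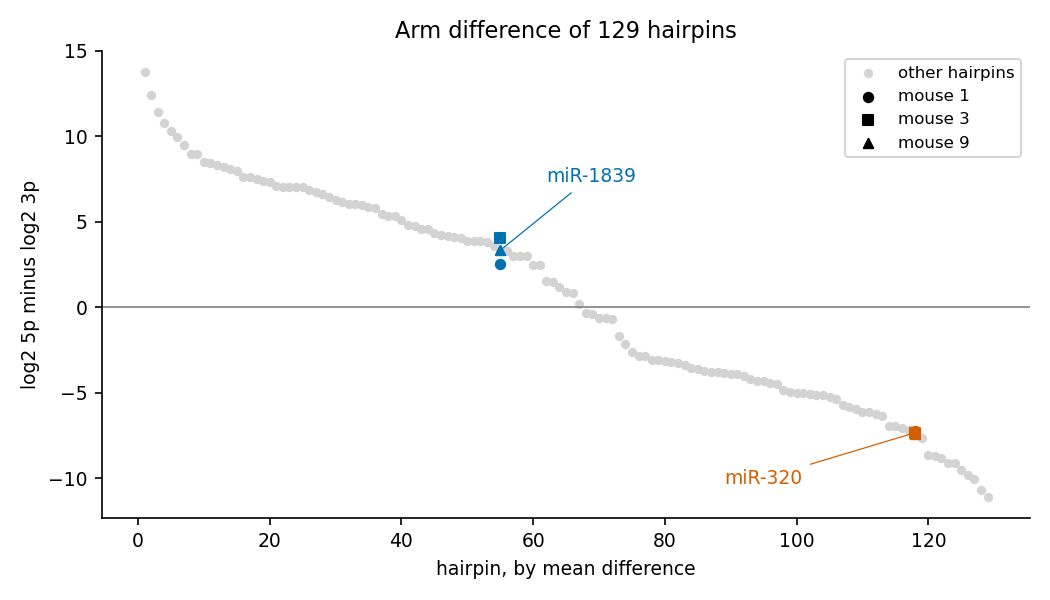
Log2 5p minus log2 3p for 129 hairpins, ordered from the highest mean difference to the lowest, with the 3 mice shown for miR-1839 and miR-320. miR-1839 lies above 0 in every mouse, and miR-320 lies near -7.33 in every mouse because its 5p strand stands at the floor.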

How the data were processed

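The deposited log2 values, 1 per miRNA and mouse, were used as the authors made them. Per the series' design text, reads passed through the Gunaratne pipeline, about 13.8 M per sample were mapped to mouse, counts were normalized to total usable reads and 40 was added. The submitters' processing notes give the build as mm10. The lowest deposited value is 10 on the linear scale, not 40, so 10 was subtracted for normalized counts and used as the log constant. Of the top 100 ranks, 85 hold the same value in the 3 mice within 1e-06, so the columns share nearly 1 set of values. Depth per library is unknown and no counting interval is given. The aligner is not given in the sources used here.

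Arm differences were tested with limma 3.58.1 in R 4.3.3 where the larger arm averaged at least 100 above the floor (129 of 425 hairpins), with Benjamini-Hochberg adjustment and a threshold of 0.05. The test was tried on simulated data. Neighbouring members were compared by an exact sign-flip test. Positions and introns were read from the GENCODE M21 annotation of GRCm38 (the same assembly as mm10) and sequences from RefSeq on GRCm38.p6; 1001 of 1251 rows matched one. Python 3.11.15, numpy 2.4.6, pandas 2.3.3 and matplotlib 3.10.9 were used. The members, lists and tests were chosen with earlier results of these data known. The miRNAs named are the members, the 3 nearest in level to each seen member and a list of other noncanonical miRNAs. Alternatives were log constants of 1 and 40, median-ratio scaling, other filters, limma's trended prior and leaving out each mouse.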

Additional observations from a re-analysis of the deposited data

How the results depend on the processing

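The arm difference of miR-1839 kept its direction under each alternative that could be fitted and lay between 2.77 and 3.72. With a larger arm of at least 1000, miR-1839 was not tested, and 39 hairpins had the 5p and 28 the 3p strand higher among 67 tested, since fewer hairpins pass that filter. The arm difference of miR-320 lay between -10.64 and -5.35 over the alternatives, as its 5p strand holds only the log constant. The floor of miR-320-5p, miR-877-3p and miR-1224-3p is 0 with a constant of 1 and 5.32 with 40. miR-484 minus miR-320-3p lay between 0.07 and 0.30 when each mouse was left out. The SD of miR-484 then lay between 0.16 and 0.40, the percentage of miRNAs with a smaller SD between 47.1 and 82.9 for miR-484 and between 18.8 and 41.3 for miR-320-3p. No value reversed. No paired analysis was possible because there is 1 group. Depth limits what can be said of rows at the floor.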
